A study of Mus musculus with 18 samples.

Results

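The 38 genes described here encode the machinery that copies DNA. They comprise origin recognition and licensing factors, the MCM2-7 helicase and its activators, the replicative polymerases and primase, the sliding clamp and its loader, the single-strand binding complex RPA, the enzymes that finish Okazaki fragments, nucleotide supply enzymes, and E2f1, a transcription factor of S-phase entry. They were chosen by name from a list with no cutoff on a measured value, though with earlier results of these data known. All 38 were found among the 17178 genes with a probe on the array, all 38 were well above background on all 18 arrays, and none was saturated.

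A cell licenses its origins when ORC, Cdc6 and Cdt1 load the MCM2-7 ring onto DNA. At the start of S phase the ring is joined by Cdc45 and GINS into the active helicase, and polymerase alpha with primase lays down primers that polymerases delta and epsilon extend, held to DNA by the PCNA clamp. Transcripts of most of these factors are under E2F control and are abundant in dividing cells, of which bone marrow holds many: erythroid, granulocytic and B-cell precursors.

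The samples were whole bone marrow from female mice of the C3H strain, aged 1 or 8 weeks. At each age there was an unirradiated control group, and there were groups killed 6 h and 24 h after a single 2 Gy dose of gamma rays at 0.6 Gy per minute. Each of the 6 groups held 3 mice measured on 3 one-colour Agilent arrays, 1 mouse per array as the labels give it. The 6 h and 24 h groups of an age were compared with the same 3 controls, and the age comparison used those controls too. Whole marrow is a mixture, so fewer cells of a type and less RNA per cell cannot be told apart in any value below.

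Sequences upstream of the gene starts are given first, since these genes are known as E2F targets. RefSeq promoter entries for GRCm38.p6, which span 250 bases before to 50 after a start, were found for 32 of the 38 genes. No entry was matched for Mcm4, Gins2, Gins4, Prim2, Pole and Rfc2. The E2F words TTTCCCGC, TTTCGCGC, TTTGGCGC or TTTGCCGC, searched on both strands with overlaps allowed, occurred in the promoters of 12 of the 32 genes (37.5%), against 704 of 27025 genes in the whole table (2.605%) and 4.44% of the genes tested on these arrays with an entry. The 12 were Orc1, Cdc6, Cdt1, Mcm3, Mcm5, Mcm6, Mcm7, Gins3, Pola1, Pold1, Rfc3 and Lig1. Such words were not particular to the 38 genes. Among genes with an entry in the further lists described below, they occurred in 9 of 35 other replication genes (25.7%). They also occurred in 7 of 18 genes of the E2F family and of S-phase entry (38.9%), and in 1 of 32 mitosis genes. The box CCAAT, on either strand, was present in 20 of the 32 (62.5%), against 41.1% of genes in the table. The CHR word of G2/M promoters, TTTGAA or TTCGAA on either strand, was present in 6 of the 32 (18.8%). The share was 21.7% in the table and 16.8% among genes tested on these arrays, and 24 of 32 mitosis genes held the word. A match is a description of these letters, not a site. Windows of 60 bases upstream of the start are shown for 6 genes whose array values are given below, each with its E2F word in capitals, printed 5′ to 3′ on the strand of the gene.
Cdc6: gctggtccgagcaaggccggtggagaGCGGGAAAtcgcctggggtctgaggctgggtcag
Mcm5: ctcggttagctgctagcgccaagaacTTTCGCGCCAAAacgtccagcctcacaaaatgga
Mcm7: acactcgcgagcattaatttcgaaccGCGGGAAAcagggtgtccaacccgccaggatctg
Gins3: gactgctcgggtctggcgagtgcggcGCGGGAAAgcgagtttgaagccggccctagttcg
Pola1: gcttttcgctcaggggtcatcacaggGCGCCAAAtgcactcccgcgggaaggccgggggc
Rfc3: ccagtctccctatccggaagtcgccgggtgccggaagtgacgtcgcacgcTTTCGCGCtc
The windows lie at chr11:98907987-98908046 on the plus strand for Cdc6, chr8:75109330-75109389 (plus) for Mcm5, chr5:138172015-138172074 (minus) for Mcm7, chr8:95633492-95633551 (plus) for Gins3, chrX:93632260-93632319 (minus) for Pola1 and chr5:151651209-151651268 (minus) for Rfc3. In Mcm5 the capitals hold 2 overlapping words, 1 on each strand. The words begin 138 bases before the start in Cdc6 and Pola1, 41 in Gins3, 165 in Mcm7, 153 in Mcm5 and 10 in Rfc3. In the 8-week 6 h comparison described below, the median difference was -0.39 over the 12 genes with a word, of which 11 fell, and -0.39 over the 20 without one, of which 19 fell. In the other comparisons with control the same medians were -0.21 and -0.14 at 1 week and 6 h, -0.17 and -0.10 at 1 week and 24 h, and -0.11 and -0.15 at 8 weeks and 24 h. For the difference between ages at 24 h they were 0.13 and -0.06. None of these differences between genes with and without a word was tested.

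Levels are log2 signals above the 75th percentile of the array, so a level of 0 lies at that percentile. Differences are log2 differences of group means ± standard error from a limma fit over all 18 arrays, with n = 3 in each group. The adjustment of p-values covers all 11884 genes tested. A gene is said to have risen or fallen where the adjusted p was under 0.05. Between 21017 and 25552 of 41174 probes were well above background per array, and arrays of a group correlated at r = 0.992 to 0.997. The exception was the second control array of 1-week marrow (replicate 2), at r = 0.978 and 0.980. That array had skeletal muscle and cartilage list means of 5.99 and 2.98, where 1-week control replicate 1 had -0.76 and -2.75, while its replication genes had a median of -0.09 relative to the mean of its group. A second array stood apart in the replication genes themselves. Relative to the 8-week controls, their median was -0.52 and -0.54 on 8-week 6 h replicates 1 and 2 and -0.21 on replicate 3.

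The main pattern was a drop of nearly the whole replication set 6 h after irradiation in 8-week marrow. At 8 weeks and 6 h, 35 of the 38 genes fell and 0 rose, where 22.1% of all genes tested fell. Orc1, Rfc2 and Rrm1 did not pass the threshold, with differences of -0.28, -0.15 and -0.21. The median difference of the 38 was -0.39, or 76.2% of the control level, where the median of all genes tested was 0.02. For 31 of the 38 genes every 6 h array lay below every control array, against 26.7% of all genes. The fall count was 37 without 8-week 6 h replicate 3 and 35 without 1-week control replicate 2. With single arrays left out in turn it ranged from 26 to 37. Of the 35 calls, 9 were not made without 8-week 6 h replicate 2. In each of the fits without 8-week 6 h replicate 1 and without 8-week control replicate 1, 6 calls were not made.

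In 1-week marrow the 6 h change was smaller and involved fewer of the genes. There 16 of the 38 fell and 0 rose, where 26.3% of all genes tested fell. The median difference was -0.17, or 88.6% of control, against 0.00 for all genes. All 16 were also among the 35 that fell at 8 weeks, which is 100% of the 1-week list and 45.7% of the 8-week list. This overlap was nearly fixed in advance, since 35 of the 38 fell at 8 weeks, so it says little about likeness between the ages. The 16 belong mainly to the MCM2-7 helicase (5 of 6), the polymerases (4 of 6) and the clamp with its loader (4 of 6). None of the 4 licensing genes passed the threshold at 1 week, and E2f1 did not. The count was 9 without 1-week control replicate 3, 8 without 1-week 6 h replicate 1, and 18 without 1-week control replicate 2.

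By 24 h the genes had moved back toward control at 8 weeks, while at 1 week the share that fell was near that of all genes. At 8 weeks 14 of 38 were lower than control (19.5% of all genes fell) and 1, Rfc2, was higher (38.3% of all genes rose), with a median difference of -0.12 against 0.12 for all genes tested. That shift of all genes upward at 8 weeks and 24 h was 0.07 under quantile scaling, where 24 of the 38 fell and 0 rose. At 1 week 8 of 38 fell and 0 rose at 24 h, where 17.6% of all genes fell, with a median of -0.13 against -0.01 for all genes. The 1-week count at 24 h was 5 without control replicate 1 or 8-week control replicate 2, 3 without control replicate 3, and 2 without 24 h replicate 3, and 1 gene rose without 8-week 6 h replicate 3. The 8-week comparison at 24 h had 0 risers without 8-week control replicate 1 or 2 or 24 h replicate 3.

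Unirradiated marrow also differed with age. In 8-week controls 35 of the 38 genes were lower than in 1-week controls and 0 were higher, where 37.5% of all genes tested were lower and 27.4% higher. The median difference was -0.51, or 70.1% of the 1-week level, against -0.09 for all genes. Pold1, Rfc2 and Rpa3 did not pass the threshold, with -0.15, -0.13 and -0.06. A second, slightly dimmer probe of Pold1 did pass it, with -0.24 (adjusted p = 0.0195). In 36 of the 38 genes all 8-week control arrays lay below all 1-week control arrays, against 40.4% of all genes. The lowest of the 6 group means was that of 8-week 6 h marrow in 36 genes and of 8-week 24 h marrow in 2, and the highest was that of 1-week controls in 30.

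**Figure D1:**
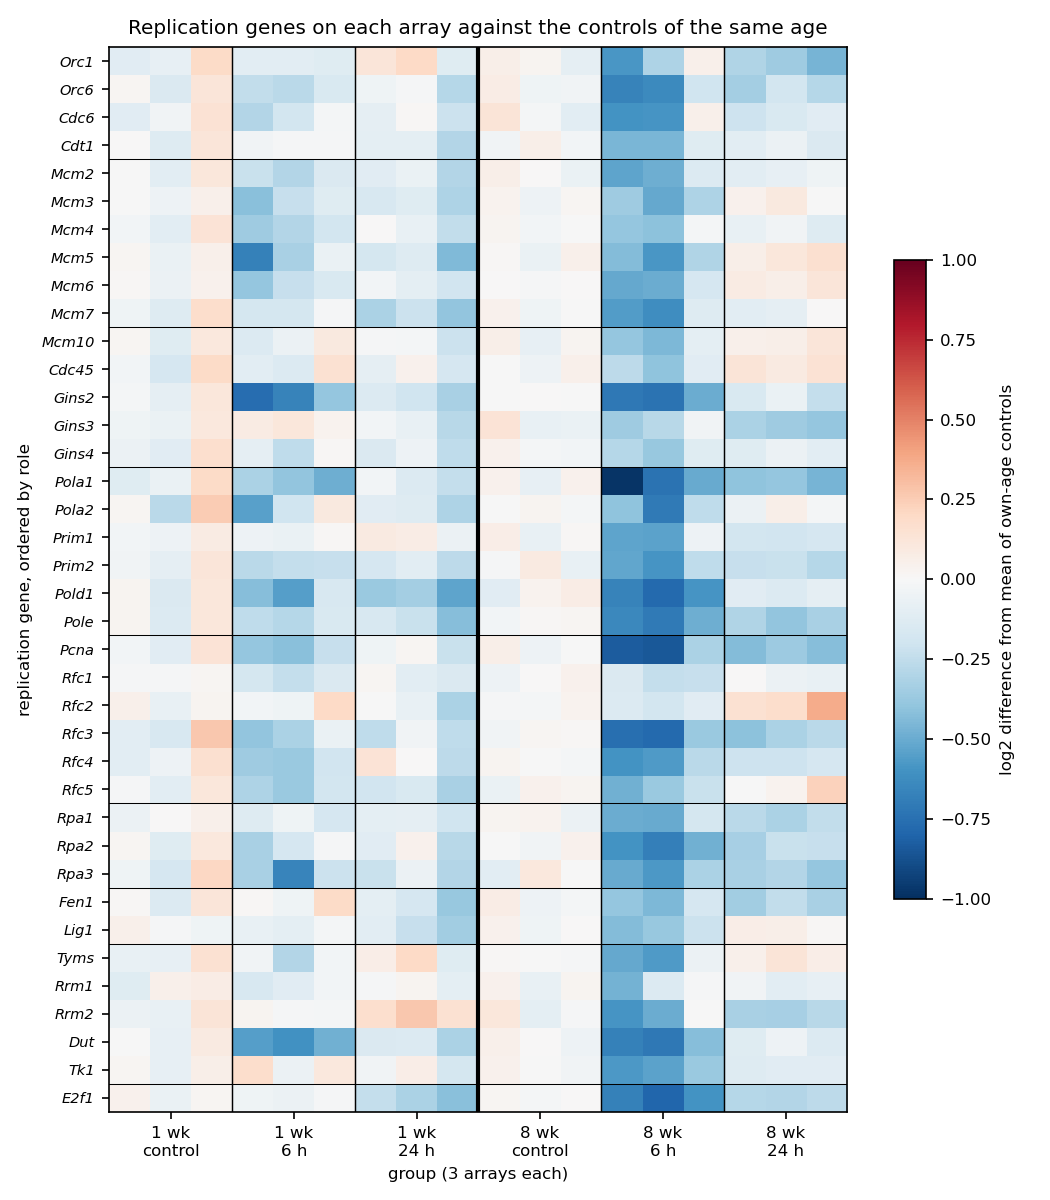
Heat map of the 38 replication genes (rows, ordered by role) on the 18 arrays (columns, 3 per group), coloured by the log2 difference from the mean of the controls of the same age, on a scale from -1 to 1. The first 2 arrays of the 8-week 6 h group are blue in nearly every row, and the third is paler, with medians of -0.52, -0.54 and -0.21.

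**Figure D2:**
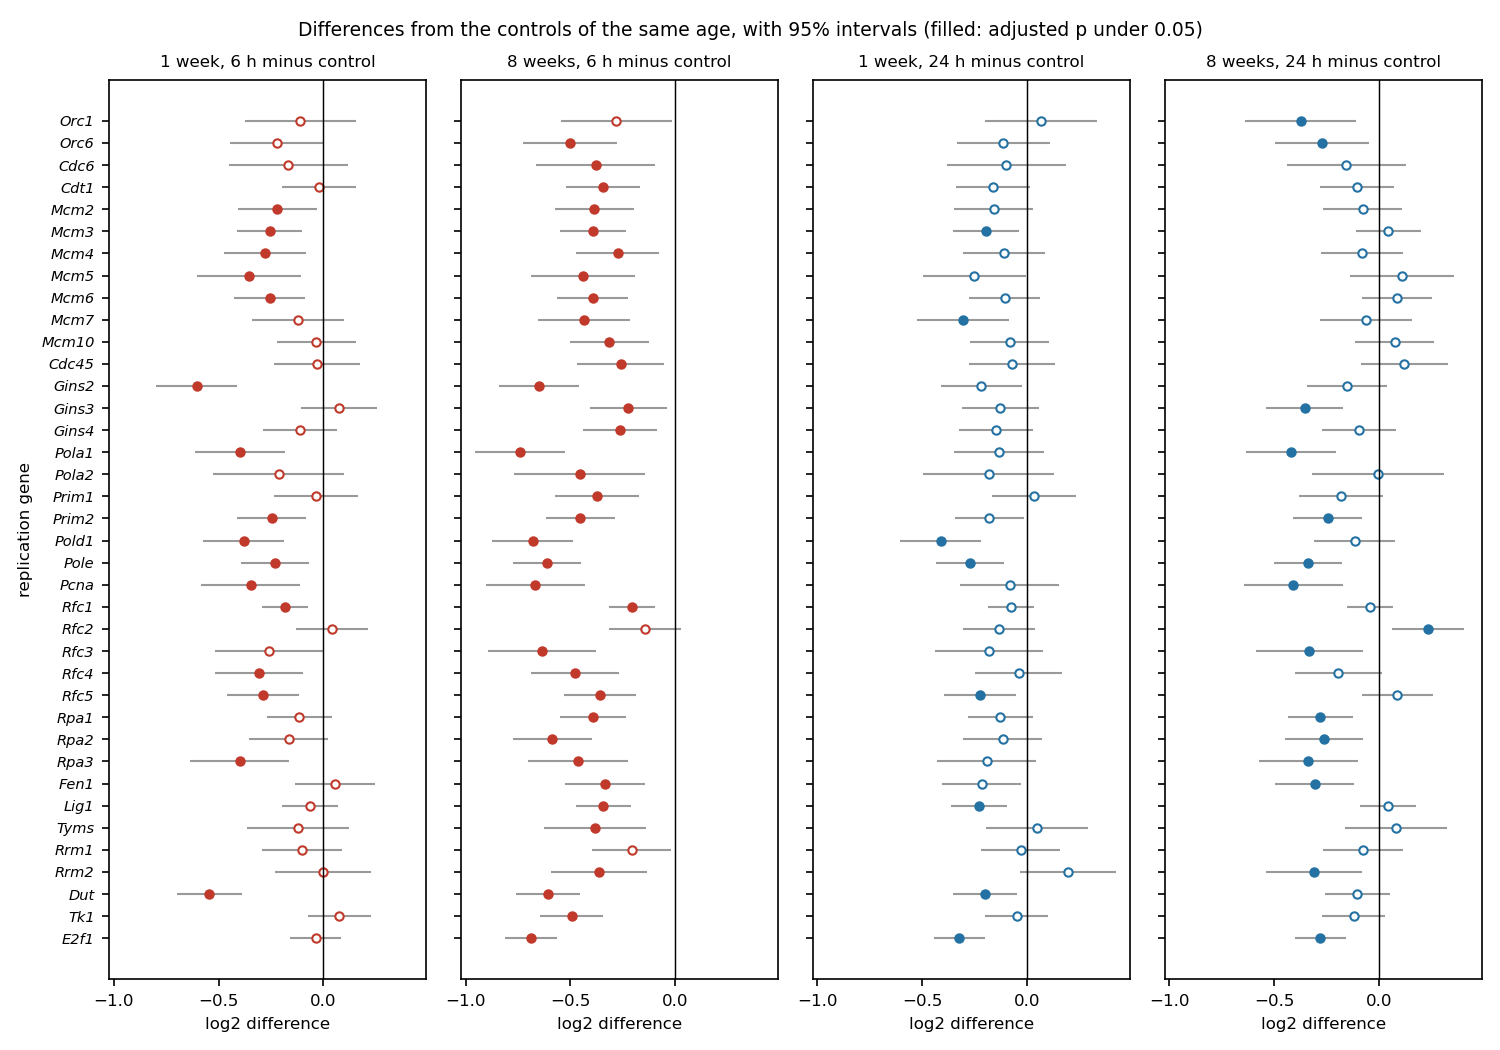
Log2 difference from the controls of the same age for each replication gene, with 95% intervals from the limma fit, 3 arrays per group; filled points passed an adjusted p of 0.05. All 38 points lie below 0 at 8 weeks and 6 h (35 filled), against 16 filled at 1 week and 6 h.

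E2f1, the transcription factor that activates many replication genes, gave the clearest contrast between ages. At 8 weeks its level was 1.24, 1.20 and 1.22 in controls, 0.54, 0.43 and 0.62 at 6 h and 0.93, 0.92 and 0.96 at 24 h. At 1 week it was 1.86, 1.75 and 1.84 in controls, 1.78, 1.76 and 1.81 at 6 h and 1.58, 1.50 and 1.40 at 24 h. The 8-week 6 h arrays lay below every other array of the series, whereas the 1-week 6 h arrays lay within the range of their controls. At 6 h E2f1 fell at 8 weeks, by a difference of -0.69 ± 0.06 (adjusted p = 1.84e-07), to 62.1% of control, and at 1 week its difference was -0.04 ± 0.06 (adjusted p = 0.622). At 24 h it was lower than control at both ages, by -0.32 ± 0.06 (adjusted p = 3.78e-04) at 1 week and -0.28 ± 0.06 (adjusted p = 6.08e-04) at 8 weeks, with no overlap of arrays. The 8-week controls differed from the 1-week controls by -0.60 ± 0.06 (adjusted p = 1.80e-07). A dimmer second probe for E2f1 gave -0.75 (adjusted p = 2.49e-05) at 8 weeks and 6 h and 0.06 (adjusted p = 0.649) at 1 week and 6 h. At 24 h this probe gave -0.48 (adjusted p = 5.51e-04) at 8 weeks. Its 1-week difference at 24 h, -0.24 (adjusted p = 0.0742), did not pass the threshold.

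The licensing genes Orc1, Orc6, Cdc6 and Cdt1 did not pass the threshold at 1 week at either time, and 3 of the 4 fell at 8 weeks and 6 h. Cdc6, the loader that recruits MCM2-7 to ORC, read 1.72, 1.57 and 1.49 in controls, 1.00, 1.00 and 1.64 at 6 h and 1.39, 1.44 and 1.48 at 24 h at 8 weeks. In 1-week marrow the Cdc6 values were 2.30, 2.39 and 2.56 in controls, 2.12, 2.23 and 2.40 at 6 h and 2.33, 2.43 and 2.20 at 24 h. Both low 8-week 6 h arrays stood below all others, and the third lay within the control range. Its differences at 6 h were -0.38 ± 0.13 (adjusted p = 0.0292) at 8 weeks and -0.17 ± 0.13 (adjusted p = 0.315) at 1 week, and it was -0.82 ± 0.13 (adjusted p = 4.89e-05) lower in 8-week than in 1-week controls, the largest age difference of the 38. Orc6, a subunit of the origin recognition complex, read 3.94, 3.82 and 3.83 in controls, 3.19, 3.23 and 3.66 at 6 h and 3.52, 3.68 and 3.58 at 24 h at 8 weeks. The 1-week levels of Orc6 were 4.60, 4.44 and 4.70 in controls, 4.33, 4.31 and 4.43 at 6 h and 4.54, 4.57 and 4.30 at 24 h. Every irradiated 8-week array was below every 8-week control in Orc6, at both times. It fell by a difference of -0.50 ± 0.11 (adjusted p = 0.00124) at 6 h and -0.27 ± 0.11 (adjusted p = 0.0372) at 24 h. At 24 h and 8 weeks Orc1, the largest ORC subunit, was also lower, by -0.37 ± 0.13 (adjusted p = 0.0179). The 6 h call of Cdc6 at 8 weeks was not made without 8-week control replicate 1 or 2 or 8-week 6 h replicate 1 or 2 or under a fit of the compared groups alone (adjusted p = 0.0571 to 0.145). The 24 h call of Orc6 was not made without 8-week control replicate 1, 2 or 3 or 8-week 24 h replicate 1 or 3 or under no filter, no intensity trend, the slide block or the authors' value table (adjusted p = 0.0516 to 0.117). That of Orc1 was not made without 8-week control replicate 1 or 8-week 24 h replicate 3 (adjusted p = 0.0581 to 0.0654).

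The 6 subunits of the MCM2-7 ring, the replicative helicase, all fell at 8 weeks and 6 h, by -0.39, -0.39, -0.27, -0.44, -0.39 and -0.44 for Mcm2 to Mcm7 in order, and at 24 h none of the 6 passed the threshold, with differences from -0.08 to 0.11. Mcm5 at 8 weeks read 4.46, 4.38 and 4.49 in controls, 4.01, 3.86 and 4.14 at 6 h and 4.50, 4.56 and 4.61 at 24 h. Mcm5 at 1 week read 5.04, 4.95 and 5.07 in controls, 4.34, 4.69 and 4.96 at 6 h and 4.84, 4.89 and 4.58 at 24 h. Each 8-week 6 h array was below, and each 24 h array above, every control array of that age, while at 1 week 6 h replicate 3 overlapped the controls. Mcm5 differed from control by -0.44 ± 0.12 (adjusted p = 0.00613) at 8 weeks and 6 h and by -0.36 ± 0.12 (adjusted p = 0.0178) at 1 week and 6 h. Mcm7 at 8 weeks was measured at 5.74, 5.66 and 5.69 in controls, 5.14, 5.08 and 5.56 at 6 h and 5.59, 5.61 and 5.70 at 24 h. In 1-week marrow Mcm7 was at 6.19, 6.10 and 6.40 in controls, 6.05, 6.05 and 6.22 at 6 h and 5.92, 6.02 and 5.83 at 24 h. The 1-week difference of Mcm7 was -0.12 ± 0.10 (adjusted p = 0.338) at 6 h and -0.31 ± 0.10 (adjusted p = 0.0289) at 24 h. Its 1-week change between 6 h and 24 h did not pass the threshold, so a difference in timing was not shown. At 8 weeks Mcm7 fell at 6 h by -0.44 ± 0.10 (adjusted p = 0.00291). Mcm2 read 3.52, 3.47 and 3.40 in controls, 2.94, 2.98 and 3.32 at 6 h and 3.36, 3.38 and 3.42 at 24 h at 8 weeks and 4.05, 3.95 and 4.17 in controls, 3.83, 3.77 and 3.91 at 6 h and 3.95, 3.99 and 3.76 at 24 h at 1 week. At 6 h every Mcm2 array was below the controls of its age, with differences of -0.39 ± 0.09 (adjusted p = 0.00244) and, at 1 week, -0.22 ± 0.09 (adjusted p = 0.0489). The 8-week 6 h call of Mcm4 was not made without 8-week control replicate 1 or 3 or 8-week 6 h replicate 1 or 2 or under a fit of the compared groups alone (adjusted p = 0.0523 to 0.116). The 1-week 6 h call of Mcm2 was not made without 1-week control replicate 1 or 3, 1-week 6 h replicate 1 or 2, 1-week 24 h replicate 1 or 2, 8-week control replicate 1, 2 or 3 or 8-week 24 h replicate 1, 2 or 3 or under scaling on probes above background, no filter, the mean over probes, no intensity trend, the slide block, the replicate block or the authors' value table (adjusted p = 0.0505 to 0.179). The call of Mcm5 there was not made without 1-week control replicate 3 or 1-week 6 h replicate 1 or under a fit of the compared groups alone (adjusted p = 0.0541 to 0.122). That of Mcm7 at 1 week and 24 h was not made without 1-week control replicate 3 or 1-week 24 h replicate 1 or 3 (adjusted p = 0.0642 to 0.139).

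Among the factors that turn the loaded ring into a moving helicase, Gins2, a subunit of the GINS complex, stood out at both ages. It read 1.86, 1.87 and 1.86 in controls, 1.14, 1.12 and 1.37 at 6 h and 1.71, 1.79 and 1.63 at 24 h at 8 weeks. The 1-week marrow gave 2.25, 2.18 and 2.39 in controls, 1.51, 1.60 and 1.89 at 6 h and 2.14, 2.08 and 1.95 at 24 h. All 6 h arrays lay below all controls of their age, and the 24 h arrays lay between them. The 6 h differences were -0.65 ± 0.09 (adjusted p = 3.89e-05) at 8 weeks and -0.60 ± 0.09 (adjusted p = 4.16e-05) at 1 week, which correspond to 63.7% and 65.8% of control. Gins3, another GINS subunit, ran a different course, with 8-week values of 0.75, 0.54 and 0.54 in controls, 0.25, 0.33 and 0.57 at 6 h and 0.29, 0.25 and 0.22 at 24 h. Its 1-week values were 0.83, 0.80 and 0.98 in controls, 0.95, 0.98 and 0.90 at 6 h and 0.84, 0.79 and 0.59 at 24 h. In Gins3 the 8-week 24 h arrays were the lowest group, below every control. Its differences at 8 weeks were -0.22 ± 0.09 (adjusted p = 0.0448) at 6 h and -0.35 ± 0.09 (adjusted p = 0.0023) at 24 h, and at 1 week and 6 h it was 0.08 ± 0.09 (adjusted p = 0.485). The other 3 genes, Mcm10, Cdc45 and Gins4, fell at 8 weeks and 6 h by -0.31, -0.26 and -0.26, and their 1-week differences of -0.03, -0.03 and -0.11 did not pass the threshold. The Gins3 call at 8 weeks and 6 h was not made without 1-week control replicate 1, 1-week 6 h replicate 1 or 2, 1-week 24 h replicate 2, 8-week control replicate 1 or 3, 8-week 6 h replicate 1 or 2 or 8-week 24 h replicate 1, 2 or 3 or under no filter, no intensity trend, a fit of the compared groups alone, the replicate block or the authors' value table (adjusted p = 0.0504 to 0.2). That of Cdc45 was not made without 8-week control replicate 1, 2 or 3 or 8-week 6 h replicate 1 or 2 or under no filter (adjusted p = 0.0543 to 0.173). Gins4 was not called without 8-week control replicate 1 or 8-week 6 h replicate 2 (adjusted p = 0.0607 to 0.0899), nor Mcm10 without 8-week 6 h replicate 2 (adjusted p = 0.0544).

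All 6 polymerase and primase genes fell at 8 weeks and 6 h, with a median difference of -0.53. The other medians of these genes were -0.24 and -0.18 at 1 week (6 h and 24 h) and -0.21 at 8 weeks and 24 h. Pola1, the catalytic subunit of polymerase alpha, read 2.77, 2.65 and 2.77 in controls, 1.76, 2.00 and 2.23 at 6 h and 2.33, 2.35 and 2.27 at 24 h at 8 weeks. At 1 week it read 2.87, 2.92 and 3.18 in controls, 2.67, 2.60 and 2.50 at 6 h and 2.96, 2.85 and 2.75 at 24 h. At both ages all 6 h arrays were below all controls, and at 8 weeks the 24 h arrays were too. Pola1 had the largest 6 h difference of the 38 at 8 weeks, -0.74 ± 0.10 (adjusted p = 3.27e-05), or 59.9% of control, with -0.40 ± 0.10 (adjusted p = 0.00369) at 1 week and -0.42 ± 0.10 (adjusted p = 0.00222) at 8 weeks and 24 h. Pold1, the catalytic subunit of polymerase delta, read 3.56, 3.71 and 3.75 in controls, 3.003, 2.89 and 3.08 at 6 h and 3.56, 3.54 and 3.58 at 24 h at 8 weeks. Its 1-week values were 3.86, 3.68 and 3.94 in controls, 3.40, 3.27 and 3.67 at 6 h and 3.45, 3.49 and 3.30 at 24 h. Here the 1-week 24 h arrays stayed below every control, whereas the 8-week 24 h arrays overlapped the lowest control. The differences at 6 h and 24 h were -0.38 ± 0.09 (adjusted p = 0.00234) and -0.41 ± 0.09 (adjusted p = 0.00216) at 1 week, against -0.68 ± 0.09 (adjusted p = 2.66e-05) and -0.11 ± 0.09 (adjusted p = 0.299) at 8 weeks. Pole, the catalytic subunit of polymerase epsilon, fell in all 4 comparisons with control, by -0.23 and -0.27 at 1 week and -0.61 and -0.34 at 8 weeks. Of the primase pair, Prim2 fell by -0.45 and Prim1 by -0.37 at 8 weeks and 6 h, and Pola2, the regulatory subunit of polymerase alpha, fell by -0.46. The 6 h call of Pole at 1 week was not made without 1-week control replicate 1 or 3 or 1-week 6 h replicate 1 or 2 (adjusted p = 0.0506 to 0.0904). Its 24 h call there was not made without 1-week control replicate 3 or 1-week 24 h replicate 3 or under a fit of the compared groups alone (adjusted p = 0.0595 to 0.0734). The call of Pola2 was not made without 8-week control replicate 2 or 8-week 6 h replicate 2 or under the slide block (adjusted p = 0.051 to 0.108).

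Pcna, the sliding clamp, read 6.35, 6.24 and 6.28 in controls, 5.45, 5.44 and 5.97 at 6 h and 5.86, 5.93 and 5.86 at 24 h at 8 weeks. The 1-week arrays gave 6.60, 6.52 and 6.77 in controls, 6.24, 6.21 and 6.39 at 6 h and 6.58, 6.65 and 6.40 at 24 h. All irradiated 8-week arrays lay below the 8-week controls, and at 1 week the 6 h arrays did. It fell at 6 h by a difference of -0.67 ± 0.11 (adjusted p = 1.84e-04) at 8 weeks and -0.35 ± 0.11 (adjusted p = 0.0161) at 1 week, and at 8 weeks and 24 h by -0.41 ± 0.11 (adjusted p = 0.00507). Of the subunits of replication factor C, the clamp loader, Rfc3 was similar to Pcna at 8 weeks, with values of 0.19, 0.24 and 0.23 in controls, -0.54, -0.56 and -0.15 at 6 h and -0.19, -0.09 and -0.05 at 24 h. Its 1-week values were 0.59, 0.53 and 0.96 in controls, 0.30, 0.38 and 0.63 at 6 h and 0.44, 0.66 and 0.44 at 24 h. The 8-week falls of Rfc3 were -0.64 ± 0.12 (adjusted p = 5.81e-04) at 6 h and -0.33 ± 0.12 (adjusted p = 0.0283) at 24 h. Rfc2 was the exception of the set, at 5.36, 5.34 and 5.40 in controls, 5.23, 5.18 and 5.25 at 6 h and 5.52, 5.55 and 5.74 at 24 h in 8-week marrow. In 1-week marrow Rfc2 was at 5.55, 5.43 and 5.53 in controls, 5.47, 5.45 and 5.70 at 6 h and 5.49, 5.42 and 5.18 at 24 h. Its 8-week 24 h arrays were all above the controls, with a rise of 0.24 ± 0.08 (adjusted p = 0.0203), while its differences at 6 h were 0.04 ± 0.08 (adjusted p = 0.671) at 1 week and -0.15 ± 0.08 (adjusted p = 0.155) at 8 weeks. The second, dimmer probe of Rfc2 gave 0.09 (adjusted p = 0.436) at 8 weeks and 24 h and -0.29 (adjusted p = 0.0203) at 8 weeks and 6 h. Rfc1, Rfc4 and Rfc5 fell at 6 h at both ages, by -0.18, -0.31 and -0.29 at 1 week and -0.20, -0.48 and -0.36 at 8 weeks. The rise of Rfc2 was not called without 8-week control replicate 1 or 2 or 8-week 24 h replicate 3 or under quantile scaling or the mean over probes (adjusted p = 0.0514 to 0.825). The 24 h call of Rfc3 was not made without 8-week control replicate 2 or 3 or 8-week 24 h replicate 1 or 2 or under the slide block (adjusted p = 0.0552 to 0.0891). The 1-week 6 h call of Pcna was not made without 1-week control replicate 3 or 1-week 6 h replicate 1 or 2 (adjusted p = 0.0513 to 0.0764). For Rfc4 the 1-week 6 h call was not made without 1-week control replicate 3 or 1-week 6 h replicate 1 or 2 or under the slide block (adjusted p = 0.0545 to 0.0868).

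All 3 genes of RPA, the complex that coats single-stranded DNA, were lower than control at both times in 8-week marrow. Rpa2 read 1.97, 1.94 and 2.02 in controls, 1.38, 1.29 and 1.50 at 6 h and 1.64, 1.75 and 1.75 at 24 h at 8 weeks. At 1 week it was 2.57, 2.43 and 2.66 in controls, 2.23, 2.39 and 2.54 at 6 h and 2.44, 2.59 and 2.28 at 24 h. The 8-week irradiated arrays were all below the controls, and the 1-week 6 h arrays overlapped theirs. Rpa2 fell by -0.59 ± 0.09 (adjusted p = 7.66e-05) at 6 h and -0.26 ± 0.09 (adjusted p = 0.0184) at 24 h at 8 weeks, against -0.17 ± 0.09 (adjusted p = 0.129) at 1 week and 6 h. Rpa3, the smallest subunit, read 2.23, 2.43 and 2.33 in controls, 1.82, 1.76 and 2.02 at 6 h and 2.00, 2.04 and 1.94 at 24 h at 8 weeks and 2.34, 2.22 and 2.59 in controls, 2.06, 1.73 and 2.17 at 6 h and 2.16, 2.33 and 2.09 at 24 h at 1 week. The 8-week and 1-week controls of Rpa3 overlapped, with an age difference of -0.06 ± 0.11 (adjusted p = 0.68), and Rpa3 was the only RPA gene called at 1 week, where it fell at 6 h by -0.40 ± 0.11 (adjusted p = 0.00689). At 8 weeks Rpa3 fell by -0.46 ± 0.11 (adjusted p = 0.00323) at 6 h and -0.34 ± 0.11 (adjusted p = 0.0169) at 24 h. The corresponding Rpa1 differences at 8 weeks were -0.39 and -0.28. The 24 h calls at 8 weeks were not made without 8-week control replicate 3 or 8-week 24 h replicate 1 (adjusted p = 0.0592 to 0.0716) for Rpa2, and without 8-week control replicate 2 or 8-week 24 h replicate 3 (adjusted p = 0.0542 to 0.0698) for Rpa3.

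Fen1, the flap nuclease, and Lig1, the ligase that seals Okazaki fragments, fell at 8 weeks and 6 h and were near control at 1 week and 6 h. Fen1 read 3.17, 3.05 and 3.08 in controls, 2.71, 2.65 and 2.93 at 6 h and 2.75, 2.85 and 2.77 at 24 h at 8 weeks. At 1 week it read 3.73, 3.59 and 3.84 in controls, 3.74, 3.68 and 3.92 at 6 h and 3.62, 3.56 and 3.34 at 24 h. The 8-week irradiated arrays were all below the controls, at 24 h as at 6 h. Fen1 fell by -0.33 ± 0.09 (adjusted p = 0.00643) at 6 h and -0.31 ± 0.09 (adjusted p = 0.00789) at 24 h at 8 weeks, and was 0.05 ± 0.09 (adjusted p = 0.63) at 1 week and 6 h. Lig1 read 5.07, 4.98 and 5.02 in controls, 4.59, 4.64 and 4.81 at 6 h and 5.09, 5.08 and 5.04 at 24 h at 8 weeks. Its 1-week values were 5.78, 5.71 and 5.68 in controls, 5.65, 5.63 and 5.71 at 6 h and 5.61, 5.49 and 5.37 at 24 h. In Lig1 the 8-week 24 h arrays overlapped the controls, and at 1 week it was the 24 h arrays that lay below. The Lig1 differences were -0.34 ± 0.06 (adjusted p = 4.16e-04) at 6 h and 0.05 ± 0.06 (adjusted p = 0.557) at 24 h at 8 weeks, and -0.06 ± 0.06 (adjusted p = 0.429) and -0.23 ± 0.06 (adjusted p = 0.00939) at 1 week. The call of Lig1 at 1 week and 24 h was not made without 1-week 24 h replicate 3 (adjusted p = 0.0607).

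Of the 5 nucleotide supply genes, Dut, which removes dUTP, was the only one called at 1 week and 6 h. It read 6.46, 6.39 and 6.56 in controls, 5.92, 5.86 and 5.99 at 6 h and 6.32, 6.33 and 6.15 at 24 h at 1 week. At 8 weeks it read 6.05, 6.00 and 5.94 in controls, 5.32, 5.28 and 5.57 at 6 h and 5.88, 5.95 and 5.86 at 24 h. The 6 h arrays were below all controls at both ages, with differences of -0.54 ± 0.07 (adjusted p = 1.38e-05) at 1 week and -0.61 ± 0.07 (adjusted p = 9.27e-06) at 8 weeks. Tk1, the thymidine salvage kinase, read 4.12, 4.08 and 4.04 in controls, 3.51, 3.54 and 3.71 at 6 h and 3.95, 3.97 and 3.97 at 24 h at 8 weeks. In 1-week marrow Tk1 was at 4.80, 4.70 and 4.84 in controls, 4.96, 4.72 and 4.88 at 6 h and 4.74, 4.84 and 4.61 at 24 h. Tk1 fell at 8 weeks and 6 h with no overlap, by -0.49 ± 0.07 (adjusted p = 5.06e-05), and was 0.08 ± 0.07 (adjusted p = 0.387) at 1 week and 6 h. Rrm2, the regulatory subunit of ribonucleotide reductase, read 3.54, 3.33 and 3.42 in controls, 2.84, 2.93 and 3.42 at 6 h and 3.11, 3.10 and 3.15 at 24 h at 8 weeks. Its 1-week values were 4.06, 4.05 and 4.26 in controls, 4.16, 4.11 and 4.10 at 6 h and 4.29, 4.39 and 4.28 at 24 h. At 24 h the ages lay on opposite sides of their controls in Rrm2, with every 1-week array above and every 8-week array below. The Rrm2 differences at 24 h were 0.20 ± 0.11 (adjusted p = 0.174) at 1 week and -0.31 ± 0.11 (adjusted p = 0.0214) at 8 weeks, and at 8 weeks and 6 h -0.36 ± 0.11 (adjusted p = 0.0117). Tyms, thymidylate synthase, read 4.52, 4.50 and 4.49 in controls, 3.99, 3.93 and 4.44 at 6 h and 4.55, 4.63 and 4.57 at 24 h at 8 weeks and 5.07, 5.06 and 5.30 in controls, 5.10, 4.85 and 5.11 at 6 h and 5.21, 5.34 and 5.02 at 24 h at 1 week. Tyms fell at 8 weeks and 6 h by -0.38 ± 0.11 (adjusted p = 0.0125) and was 0.08 ± 0.11 (adjusted p = 0.563) at 24 h. Rrm1, the catalytic reductase subunit, did not pass the threshold after irradiation in any of the 4 comparisons, with -0.21 at 8 weeks and 6 h. At 8 weeks and 6 h the call of Tyms was not made without 8-week 6 h replicate 1 or 2 (adjusted p = 0.0565 to 0.074). That of Rrm2 was not made without 8-week control replicate 1 or 8-week 6 h replicate 1 or 2 or under a fit of the compared groups alone (adjusted p = 0.0558 to 0.0696). The 24 h call of Rrm2 at 8 weeks was not made without 8-week control replicate 1 or 8-week 24 h replicate 1 or 2 (adjusted p = 0.0517 to 0.09). The 1-week 24 h call of Dut was not made without 1-week control replicate 1 or 3, 1-week 24 h replicate 3, 8-week control replicate 2 or 8-week 24 h replicate 1 or under no filter, no intensity trend, a fit of the compared groups alone, the replicate block or the authors' value table (adjusted p = 0.0517 to 0.196).

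**Figure D3:**
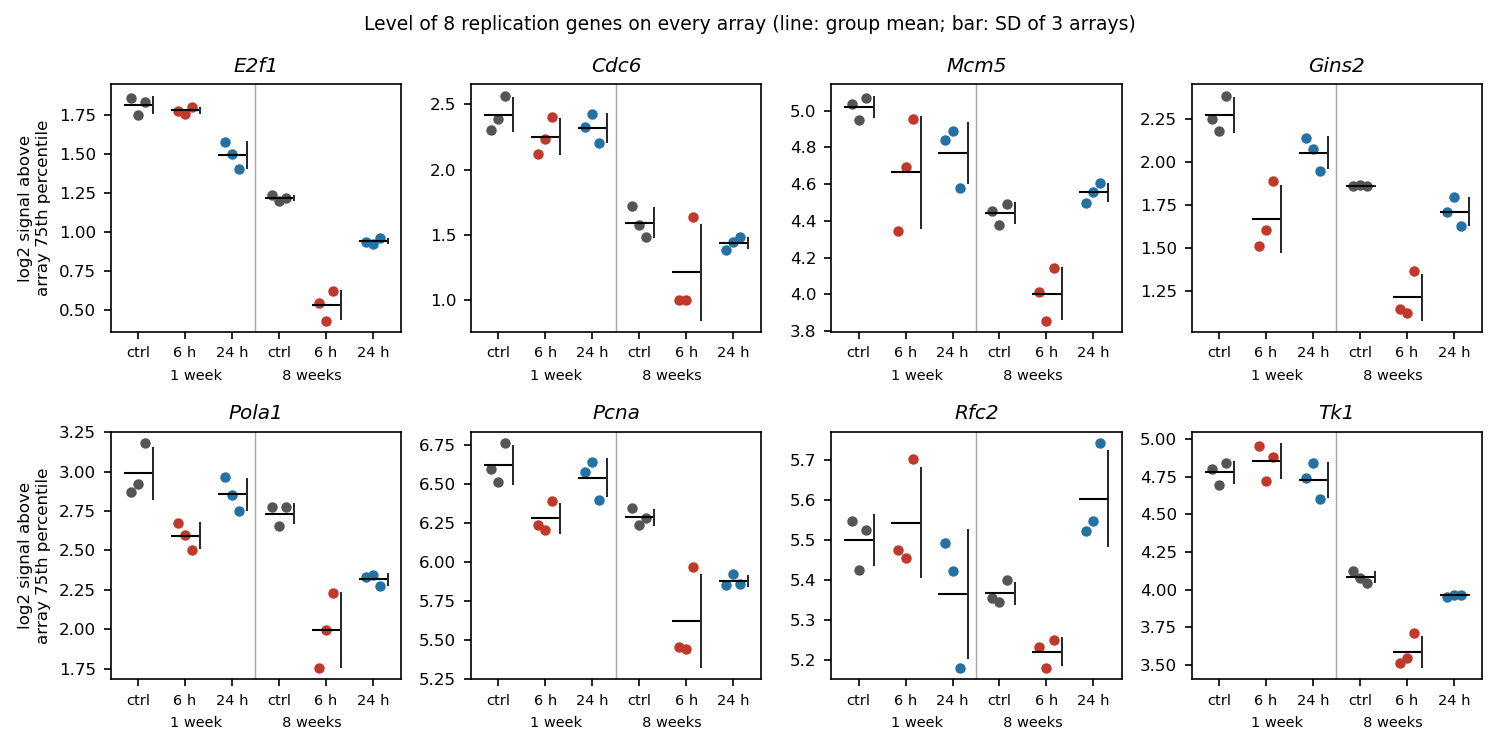
Level of 8 replication genes on every array (log2 signal above the 75th percentile of the array, 1 point per array, 3 per group), with the group mean as a line and the SD as a bar. E2f1 and Tk1 are low at 8 weeks and 6 h and near control at 1 week and 6 h, Gins2 is low at 6 h at both ages, and Rfc2 is highest at 8 weeks and 24 h.

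Whether the 6 h response differed between ages was tested gene by gene as an interaction. The 8-week response was lower than the 1-week response in 6 of the 38 genes and higher in 0, where 8.09% of all genes tested were lower. These were E2f1 with -0.65 ± 0.08 (adjusted p = 8.89e-05), Tk1 with -0.57 ± 0.10 (adjusted p = 0.00142), Rpa2 with -0.42 ± 0.13 (adjusted p = 0.0286), Fen1 with -0.39 ± 0.13 (adjusted p = 0.0425), Pole with -0.38 ± 0.11 (adjusted p = 0.0234) and Lig1 with -0.28 ± 0.09 (adjusted p = 0.038). The median interaction of the 38 was -0.25 against 0.01 for all genes. For Gins2 and Dut, which fell at both ages, the interaction was -0.05 and -0.06, with 95% intervals of -0.32 to 0.23 and -0.28 to 0.16. Over 30 alternatives the call was kept in 29 for E2f1, 29 for Tk1, 22 for Rpa2, 12 for Fen1, 24 for Pole and 16 for Lig1. The count depended on single arrays: it was 20 without 8-week 6 h replicate 3, 3 without 8-week control replicate 1 or 3, and 2 without 1-week control replicate 2, 1-week 6 h replicate 3 or 8-week 6 h replicate 2. At 24 h the 8-week response was higher than the 1-week response for Rfc2 (0.37 ± 0.11, adjusted p = 0.0171), Rfc5 (0.31 ± 0.11, adjusted p = 0.0383) and Lig1 (0.27 ± 0.09, adjusted p = 0.0215), where 28.5% of all genes were higher, and lower for Rrm2 (-0.51 ± 0.15, adjusted p = 0.0145), where 13.5% were lower. Of the same 30 alternatives the call was kept in 26 for Rfc2, 17 for Rfc5, 23 for Lig1 and 29 for Rrm2. Those counts of 3 and 1 ranged from 1 to 5 and from 1 to 4 when single arrays were left out. The lower count was 4 without 8-week 6 h replicate 3, 3 without 1-week control replicate 3, and 2 without 1-week 24 h replicate 3 or 8-week 6 h replicate 1. The higher count was 1 without 1-week control replicate 1 or 1-week 24 h replicate 3, and 5 without 1-week 6 h replicate 1 or 3.

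**Figure D4:**
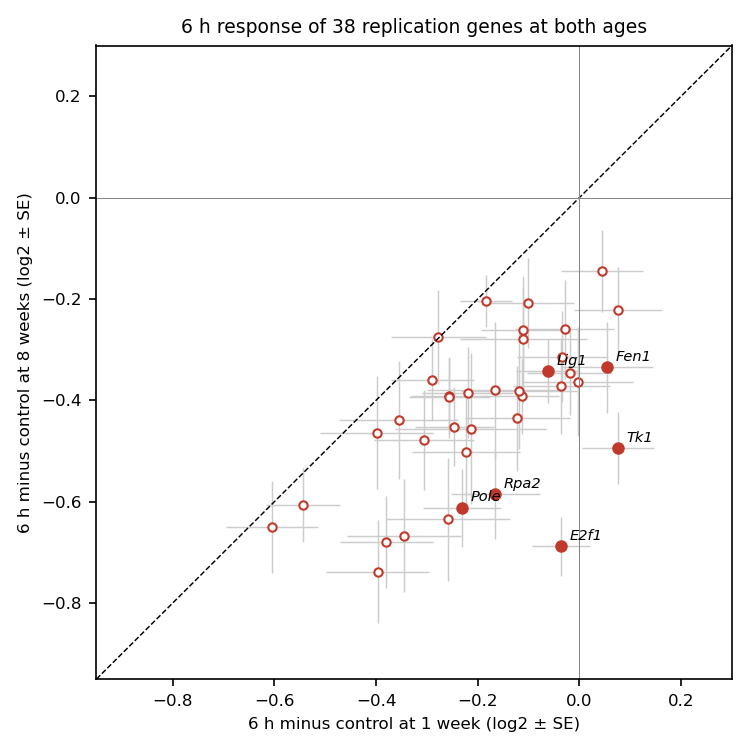
The 6 h minus control difference (log2 ± SE) of the 38 replication genes at 1 week (horizontal) and 8 weeks (vertical), with equal responses on the dashed line; filled, named points passed the test of the difference between ages. Most points lie below the line, with E2f1 at -0.04 and -0.69, and Gins2 lies near it at -0.60 and -0.65.

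Between 6 h and 24 h the replication genes rose in 8-week marrow. There 25 of the 38 rose and 0 fell, where 33% of all genes tested rose, and the median difference was 0.31 against 0.10 for all genes. The largest rises were those of Pold1 (0.57 ± 0.09, adjusted p = 8.55e-05), Mcm5 (0.55 ± 0.12, adjusted p = 9.36e-04), Dut (0.50 ± 0.07, adjusted p = 3.00e-05) and Gins2 (0.50 ± 0.09, adjusted p = 2.59e-04). In 23 genes all 24 h arrays lay above all 6 h arrays, against 37.6% of all genes. Genes that were still near their 6 h level at 24 h included Fen1 (0.03), Rrm2 (0.05), Orc1 (-0.09) and Gins3 (-0.13), none of which passed the threshold. The count was 34 without 8-week 6 h replicate 3, and with single arrays left out in turn it ranged from 19 to 34. Of the 25 calls, 6 were not made without 8-week 6 h replicate 2, and 6 were not made under quantile scaling. In each of the fits without 8-week 6 h replicate 1, 8-week 24 h replicate 1 or 8-week 24 h replicate 2, 5 were not made. At 1 week 3 genes rose between the times (18.6% of all genes rose) and 3 fell (17.6% of all genes fell). The risers were Gins2 (0.39), Dut (0.34) and Rfc4 (0.27), and the genes that fell were E2f1 (-0.29), Fen1 (-0.27) and Lig1 (-0.17). Among these 1-week calls, the number of the 30 alternatives that kept the call was 29 for Gins2, 29 for Dut, 11 for Rfc4, 29 for E2f1, 26 for Fen1 and 7 for Lig1. The 1-week fall count was 1 without 6 h or 24 h replicate 3 of that age and 2 without control replicate 2, and the rise count was 5 without 24 h replicate 3 and 6 without 8-week 6 h replicate 3.

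A further 44 replication genes outside the 38 were listed, of which 43 were tested; no probe was matched for Gins1. At 6 h 18 fell and 2 rose at 1 week, where 26.3% of all genes tested fell and 25.5% rose. At 8 weeks 28 fell and 0 rose, where 22.1% fell and 23.9% rose. The medians were -0.18 and -0.32. Cdc7, the kinase that fires licensed origins, was called for a difference between ages at 6 h, with levels of 0.60, 0.56 and 0.63 in controls, 0.11, 0.19 and 0.16 at 6 h and 0.12, 0.12 and 0.10 at 24 h at 8 weeks. Its 1-week levels were 0.62, 0.53 and 0.81 in controls, 0.80, 0.69 and 0.68 at 6 h and 0.45, 0.51 and 0.48 at 24 h. Cdc7 fell at 8 weeks and 6 h by -0.44 ± 0.06 (adjusted p = 5.35e-05), was 0.07 ± 0.06 (adjusted p = 0.395) at 1 week and 6 h, and its interaction was -0.51 ± 0.09 (adjusted p = 0.00152). Gmnn, the inhibitor of Cdt1, fell at 8 weeks and 6 h by -0.48 ± 0.08 (adjusted p = 1.52e-04), and Pole2, the second polymerase epsilon subunit, fell at 6 h by -0.46 ± 0.14 (adjusted p = 0.00941) at 1 week and -0.59 ± 0.14 (adjusted p = 0.00248) at 8 weeks. Among the nucleotide genes Dtymk, thymidylate kinase, fell at 6 h at both ages, by -0.67 ± 0.08 (adjusted p = 8.26e-06) and -0.53 ± 0.08 (adjusted p = 1.26e-04). Pold2, the second polymerase delta subunit, fell at 8 weeks and 6 h by -1.02 ± 0.16 (adjusted p = 8.87e-05). The probe named for Rrm2b, the ribonucleotide reductase subunit known to be induced by p53, read -1.40, -1.43 and -1.61 in controls, -2.29, -2.35 and -2.11 at 6 h and -2.75, -3.08 and -2.95 at 24 h at 8 weeks. At 1 week it read -2.78, -2.71 and -2.55 in controls, -3.13, -2.77 and -3.64 at 6 h and -3.07, -2.96 and -2.93 at 24 h. Whether this probe measures the Rrm2b transcript was not checked, so its values are those of the probe. At 8 weeks all irradiated arrays were below the controls, and at 1 week 6 h replicate 2 lay within the control range. The probe fell by -0.77 ± 0.17 (adjusted p = 0.00174) at 6 h and -1.45 ± 0.17 (adjusted p = 2.55e-06) at 24 h at 8 weeks and by -0.50 ± 0.17 (adjusted p = 0.022) at 1 week and 6 h. Its difference of -0.30 ± 0.17 (adjusted p = 0.183) at 1 week and 24 h did not pass the threshold. Between controls its level was 1.20 ± 0.17 (adjusted p = 1.16e-05) higher at 8 weeks.

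Of 24 listed genes of the E2F family and of S-phase entry, 23 were tested. These did not share 1 direction at 6 h. Of the 23, 9 rose and 3 fell at 1 week, where 25.5% of all genes tested rose and 26.3% fell. At 8 weeks 6 rose and 8 fell, where 23.9% rose and 22.1% fell. Cdkn1a, the p53-induced inhibitor of cyclin-dependent kinases, read -0.27, -0.40 and -0.14 in controls, 2.55, 2.89 and 2.66 at 6 h and 2.47, 2.63 and 2.51 at 24 h at 8 weeks. At 1 week it read 0.32, 0.61 and 0.12 in controls, 3.06, 2.68 and 2.31 at 6 h and 2.89, 2.58 and 2.44 at 24 h. Every irradiated array was above every control, with rises of 2.33 ± 0.16 (adjusted p = 1.84e-08) and 2.29 ± 0.16 (adjusted p = 2.35e-08) at 1 week and 2.97 ± 0.16 (adjusted p = 9.93e-10) and 2.81 ± 0.16 (adjusted p = 8.07e-10) at 8 weeks. The interaction of Cdkn1a did not pass the threshold, with 0.64 ± 0.23 (adjusted p = 0.064) at 6 h. Rbl2, a pocket protein that represses E2F targets, rose at 6 h by 0.79 ± 0.07 (adjusted p = 2.69e-07) at 1 week and 0.77 ± 0.07 (adjusted p = 5.95e-07) at 8 weeks. E2f7, an E2F repressor, fell at 8 weeks and 6 h by -0.58 ± 0.10 (adjusted p = 1.68e-04). Ccne1, a cyclin of S-phase entry, fell there by -0.57 ± 0.15 (adjusted p = 0.00471), and Ccne2 was -0.34 ± 0.17 (adjusted p = 0.117).

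Mitosis genes were set beside the replication genes because both are read as proliferation markers, and 37 of the 38 listed were tested. At 1 week and 6 h 30 of the 37 rose and 0 fell (median 0.35), where 25.5% of all genes tested rose. At 8 weeks and 6 h 5 rose and 2 fell (median 0.04), where 23.9% of all genes rose and 22.1% fell. At 24 h 1 rose and 3 fell at 1 week, where 18.4% rose and 17.6% fell. At 8 weeks 24 fell and 0 rose (median -0.25), where 19.5% fell and 38.3% rose. Ube2c, which targets mitotic cyclins for destruction, rose at 6 h by 1.23 ± 0.09 (adjusted p = 2.51e-08) at 1 week and 1.16 ± 0.09 (adjusted p = 5.93e-08) at 8 weeks. Relative to the controls of the same age, the list median per array was 0.36, 0.31 and 0.35 at 1 week and 6 h and -0.07, 0.01 and 0.21 at 8 weeks and 6 h. The replication genes had -0.24, -0.23 and -0.07, and -0.52, -0.54 and -0.21 on the same arrays. In 8-week 6 h replicate 3 both medians were the highest of their group. The difference between the lists was not tested.

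**Figure D5:**
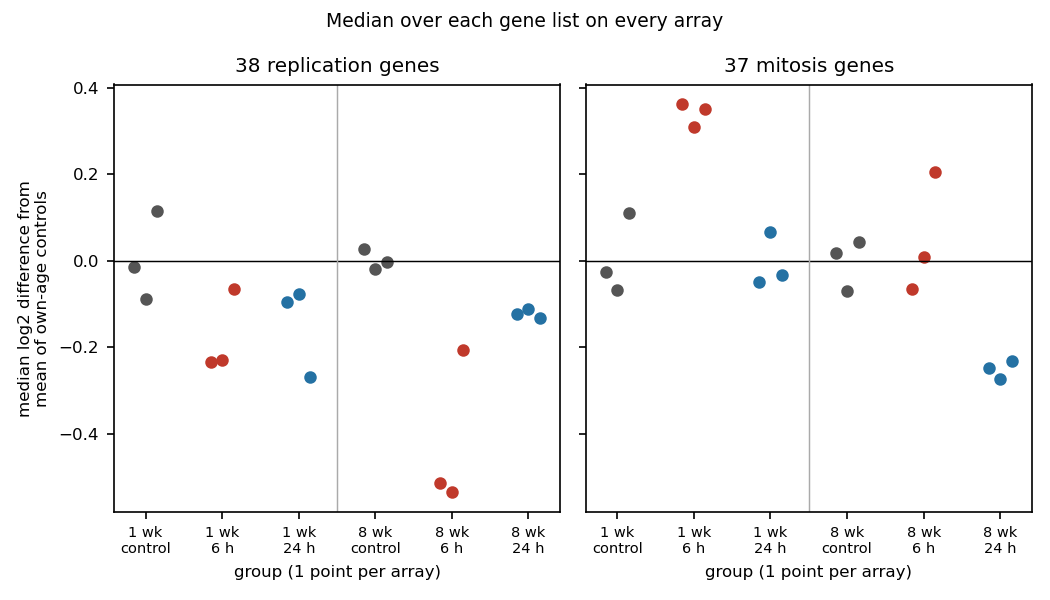
Median over the 38 replication genes (left) and 37 mitosis genes (right) of the log2 difference from the mean of the own-age controls, 1 point per array and 3 arrays per group. At 6 h the replication medians lie below 0 on all 6 arrays, from -0.54 to -0.07, while the 1-week mitosis medians lie between 0.31 and 0.36.

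Markers of marrow cell types moved in the same comparisons, and their part in the results above was not tested. Over all genes tested, 25.5% rose and 26.3% fell at 1 week and 6 h, and 18.4% and 17.6% at 1 week and 24 h. In 8-week marrow 23.9% rose and 22.1% fell at 6 h, and 38.3% and 19.5% at 24 h. B-cell precursor markers fell in 12 of 13 tested genes at 1 week and 13 of 13 at 8 weeks, at both times. Their list mean ranged from 2.78 to 2.86 in 8-week controls, 0.94 to 1.31 at 6 h and 0.55 to 0.70 at 24 h, and from 2.44 to 2.67, 1.09 to 1.31 and 0.66 to 0.74 at 1 week. Of 15 listed B-cell precursor genes, Igll1 had no matched probe and Rag2 was too dim to test. Erythroid markers rose in 16 of 19 genes at 1 week and 6 h and in 13 at 8 weeks and 6 h, and 13 fell at 8 weeks and 24 h. Their mean ranged from 4.94 to 4.997 in 1-week controls and 5.51 to 5.61 at 6 h, and from 4.43 to 4.48 in 8-week controls, 4.47 to 4.93 at 6 h and 4.11 to 4.21 at 24 h. On the 8-week 6 h arrays the erythroid mean was 4.47, 4.83 and 4.93, the highest being replicate 3. Early granulocyte markers fell in 5 of 6 genes at 1 week and 6 h, 1 rose and 0 fell at 8 weeks and 6 h, and 6 of 6 rose at 8 weeks and 24 h, with means of 4.63 to 4.69 in 8-week controls, 4.44 to 4.73 at 6 h and 5.31 to 5.58 at 24 h. Late neutrophil markers rose in 13 of 13 genes at 1 week at both times, in 12 at 8 weeks and 6 h and in 13 at 8 weeks and 24 h. Their mean ranged from 4.97 to 5.21, 5.73 to 5.95 and 5.82 to 5.98 in 1-week controls, 6 h and 24 h arrays. At 8 weeks it ranged from 6.21 to 6.33, 6.70 to 6.87 and 6.77 to 6.88. Macrophage markers moved oppositely with age at 6 h: 11 of 15 fell and 1 rose at 1 week, whereas 14 rose and 0 fell at 8 weeks. In that list 14 of 15 passed the test of the difference between ages, with a median interaction of 1.44. In that test 10.5% of all genes were higher and 8.09% lower. At 24 h 14 of 15 rose at 1 week and 15 of 15 at 8 weeks. The macrophage mean ranged from 0.48 to 0.63 in 1-week controls, -0.28 to 0.06 at 6 h and 1.26 to 1.31 at 24 h. The 8-week macrophage ranges were 1.17 to 1.45, 1.96 to 2.06 and 2.83 to 2.93. Between the controls, 16 of 19 erythroid genes were lower at 8 weeks. Higher there were 6 of 6 early granulocyte, 12 of 13 late neutrophil and 12 of 15 macrophage genes. Of 13 tested B-cell precursor genes 7 were higher and 3 lower. All 7 skeletal muscle and all 6 cartilage genes tested were lower at 8 weeks, with medians of -3.89 and -4.04. The cartilage mean ranged from -2.75 to 2.98 in 1-week controls and from -4.95 to -4.55 in 8-week controls. The muscle means overlapped, at -0.76 to 5.99 and -3.57 to -0.30. Of all genes tested 37.5% were lower and 27.4% higher. No sorted cells were used, so the members' changes cannot be assigned to a cell type.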

How the data were processed

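Arrays were single-channel Cy3 Agilent 4x44K mouse arrays, 18 in all. Intensity values in the deposited array files were made by the authors with Agilent Feature Extraction (11.5.1 per the submitters' processing notes, 9.5.1.1 per the file headers), which subtracted background and detrended each array. The deposited value table holds the authors' log2 values, shifted per array and centred per probe, and served as an alternative. Flags per spot in the deposited files are 0 or 1, a score with no scale.

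Control spots and outlier spots were left out, spots of a probe were averaged on the log2 scale, and the 75th percentile of each array was subtracted. RefSeq accessions in the files named 24844 of 41174 probes. The brightest of several probes of a gene was used. Genes well above background on all 3 arrays of a group were tested (11884, with 5286 too dim), with limma 3.58.1 in R 4.3.3, with an intensity trend, 12 residual and 4.33 prior degrees of freedom, 9 comparisons, two-sided p-values and Benjamini-Hochberg adjustment within a comparison. The number of arrays limits the precision.

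The members, lists and tests were chosen with earlier results of these data known. Per-array values are given, in each role, for the 2 members with the largest called difference from control, for members called against the majority, and for E2f1, Pcna, Cdc6, Mcm2, Rrm2 and Tyms. From the other lists Cdkn1a, Rrm2b, Ccne1, Ccne2, Cdc7, Gmnn, Gins1 and Pole2 are named, with genes among the 4 of lowest adjusted p in a comparison. Members of a list named outside that rule are Orc1, Mcm3, Mcm4, Mcm6, Mcm10, Cdc45, Gins4, Pola2, Prim1, Prim2, Pole, Rfc1, Rfc4, Rfc5, Rpa1 and Rrm1, given by their differences.

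Replicate numbers were not taken to pair the arrays. Among 45 pairs with the same number r of the deviations ran from -0.27 to 0.32, and 9 exceeded 0.1. For 9 of 18 arrays the array outside the group with the highest r carried the same number, so the check does not settle whether numbers were shared by design. Arrays lay on 5 slides of 1 scan day. Where a slide held arrays of both groups, 1 of each, the called members had the sign of the fit there, but these arrays are part of that fit. At 8 weeks and 6 h the only such slide was slide 3, where the median of the 38 was -0.20, against -0.39 in the fit. Slide 3 held 8-week 6 h replicate 3, the array with the smaller drop. The 8-week 6 h replicates 1 and 2 lay on slides 1 and 2, which held no 8-week control. The median of the 38 within a slide had the sign of the fit except at 1 week and 24 h on slide 2, where it was 0.02 (20 members above 0 and 18 below, against -0.13 in the fit and -0.18 on slide 3), and between 6 h and 24 h at 1 week on slide 4, where it was -0.01 (against 0.07). No mean-signal column was used for the normexp alternative, which took the median signal of each spot. Promoter sequences and their coordinates came from the RefSeq table of GRCm38.p6. The array header names an older genome build, so no probe coordinates are given.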

Additional observations from a re-analysis of the deposited data

Results flagged for a closer look

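In 10 cases the response of a replication gene differed between the ages by the interaction test in limma, with adjusted p under 0.05. At 6 h the 8-week response was lower in E2f1 (-0.65), Tk1 (-0.57), Rpa2 (-0.42), Fen1 (-0.39), Pole (-0.38) and Lig1 (-0.28). There 8.09% of all genes tested were lower. At 24 h the 8-week response was higher in Rfc2 (0.37), Rfc5 (0.31) and Lig1 (0.27), and lower in Rrm2 (-0.51). Over all genes tested 28.5% were higher and 13.5% lower at 24 h, shares that the replication genes did not exceed. Lig1 was the only gene of the 10 that appeared at both times, with opposite signs. The 6 h interaction was not called for Fen1 without 1-week control replicate 1 or 2, 1-week 6 h replicate 1 or 3, 1-week 24 h replicate 2, 8-week control replicate 1, 2 or 3, 8-week 6 h replicate 1 or 2 or 8-week 24 h replicate 1 or 3 or under no filter, no intensity trend, a fit of the compared groups alone or the authors' value table (adjusted p = 0.0512 to 0.0998), for Lig1 without 1-week control replicate 2 or 3, 1-week 6 h replicate 1 or 3, 8-week control replicate 1 or 3 or 8-week 6 h replicate 1 or 2 or under no filter, no intensity trend, a fit of the compared groups alone or the replicate block (adjusted p = 0.05 to 0.0874), or for Rpa2 without 1-week control replicate 2, 1-week 6 h replicate 3, 8-week control replicate 1 or 3 or 8-week 6 h replicate 2 or under the slide block (adjusted p = 0.053 to 0.0698). The 24 h interaction of Rfc2 was not called under quantile scaling or the mean over probes (adjusted p = 0.0527 to 0.138), and that of Lig1 was not called without 1-week control replicate 1, 1-week 24 h replicate 3 or 8-week control replicate 2 or under quantile scaling, scaling on probes above background or the slide block (adjusted p = 0.0516 to 0.268). The calls of Pole at 6 h and Rfc5 at 24 h were also not made under part of the alternatives counted above. Of the 24 h calls, that of Rfc5 was kept in the fewest.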

How the results depend on the processing

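All 9 comparisons were recomputed under 11 alternatives and with each of the 18 arrays left out. With 1 array left out, the number of members that fell ranged from 8 to 19 at 1 week and 6 h, from 2 to 10 at 1 week and 24 h, from 26 to 37 at 8 weeks and 6 h, from 10 to 15 at 8 weeks and 24 h and from 30 to 35 in the control comparison. The number that rose ranged from 0 to 1 at 24 h at both ages. For the difference between ages it ranged from 2 to 20 lower at 6 h, and from 1 to 4 lower and 1 to 5 higher at 24 h. Between 6 h and 24 h it ranged from 1 to 4 falls and 2 to 6 rises at 1 week and from 19 to 34 rises at 8 weeks.

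The replicate block gave 16, 6, 34 and 14 falls in the 4 comparisons with control, in the order 1 week 6 h, 1 week 24 h, 8 weeks 6 h and 8 weeks 24 h. It gave 35 falls in the control comparison and 25 rises between 6 h and 24 h at 8 weeks. The replicate numbers were not taken to pair the arrays.

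At 1 week and 24 h the 8 falls became 5 with no filter on dim genes, 5 with no intensity trend, 5 on the authors' value table and 4 with only the compared groups in the fit. At 8 weeks and 24 h quantile scaling gave 24 falls and 0 rises, and the mean over all probes gave 0 rises. For the difference between ages at 24 h, quantile scaling gave 2 lower and 0 higher, the percentile over probes above background on all arrays 2 and 1, and only the compared groups 4 and 7. Between 6 h and 24 h at 1 week the slide block gave 5 falls and only the compared groups 5 rises.

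The normexp correction gave the most different counts. It raised the 75th percentile of 8-week 24 h replicate 3 to 1499, against 489.1 in the processed signal, while on the other arrays the values were 529 to 790.7 and 461.5 to 727.6. Under it the falls were 1, 0, 4 and 14 in the same order with 0 rises, 8 in the control comparison, 0 lower for the difference at 6 h, 0 lower and 0 higher at 24 h, 0 falls and 0 rises between times at 1 week, and 1 rise at 8 weeks. With that array left out, an alternative chosen after seeing the data, the falls were 16, 8, 34 and 12, with 0 rises at 8 weeks and 24 h, 32 falls in the control comparison and 19 rises between the times at 8 weeks. Signs changed under normexp alone. Between 6 h and 24 h at 8 weeks it gave -0.22 for Cdt1, -0.10 for Mcm2, -0.0367 for Mcm6, -0.12 for Mcm7, -0.0346 for Mcm10, -0.0521 for Pola1, -0.15 for Prim2, -0.13 for Pole, -0.18 for Rfc1, -0.13 for Rfc2, -0.20 for Rfc4, -0.0205 for Rpa2, -0.0750 for Lig1, -0.0627 for Tk1, -0.0727 for Ccne1, -0.20 for Gmnn and 0.25 for Rrm2b. It gave -0.30 for Rfc2 at 8 weeks and 24 h, and, for the difference between ages at 24 h, -0.13 for Rfc2, -0.22 for Rfc5 and -0.0917 for Lig1. The cause of that percentile was not tested. A sign change of a difference past the threshold in neither setting was not counted.

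With 3 arrays per group and an SD between arrays of the 8-week 6 h group of 0.04 to 0.37 over the members, small differences cannot be resolved. Array signal over background was no limit, since all members were well above background.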
